A study of Glycine max with 36 samples.

Results

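Small RNA hits on 4 soybean (Glycine max) genes of the MYB transcription factor family were described across 36 libraries. The genes are a pair of MYB5 homologs, Glyma.05G061900 and Glyma.17G143600, the MYB93 homolog Glyma.06G103300 and the MYB15 homolog Glyma.10G165800. They are 4 of 52872 annotated genes and 4 of 381 genes whose deposited description holds the word MYB. They were chosen by their small RNA hits, which stood high in 3 immature seed coats of the variety Williams against Williams seedling cotyledons, so their values in those libraries are given as a description with no test. Gene names here are those of the best Arabidopsis match in the deposited annotation.

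MYB proteins bind DNA through a Myb-like domain, which the deposited annotation gives for all 4 genes. In Arabidopsis, MYB5 acts in the outer seed coat and trichomes with bHLH and WD40 partners and overlaps in function with TRANSPARENT TESTA2, the MYB regulator of proanthocyanidins, the seed coat tannins. Arabidopsis MYB93 is known from the root endodermis, where it restrains lateral root growth, and MYB93 homologs of other plants regulate suberin, while Arabidopsis MYB15 is known for defence lignin and the cold response. Plant small interfering RNAs are cut by Dicer-like enzymes from double-stranded RNA and so come from both strands of a gene, whereas fragments of a messenger RNA lie on its sense strand only.

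The series sequenced small RNAs of hand-dissected soybean tissues, with seeds staged by fresh weight, to follow chalcone synthase (CHS) small interfering RNAs that control seed colour. Immature seed coats gave 14 libraries. Williams (genotype i-i R T, yellow coat with black hilum) gave 3, at 100 to 200, 200 to 300 and 400 to 500 mg. Its mutation line Williams 44 (i R T, black coat) gave 1 at 50 to 75 mg. Clark 63 (i-i R T) gave 1 whole coat at 50 to 100 mg, and the Clark isoline UC413 (i-i R t with mi and G, minute hilum and defective coat, called Clark mi below) gave 1 at the same weight. Richland (I R t, yellow coat) and T157 (i R t, imperfect black coat) each gave 3 at 5 to 6 mg and 1 at 10 to 25 mg. Other Williams libraries were 1 dry mature seed coat, 1 dry cotyledon, 1 immature cotyledon of 200 to 300 mg seeds, 2 embryo axes of 200 to 300 and 300 to 400 mg seeds, 7 seedling cotyledons of stages 1 to 7 and 1 leaf of a 10-day seedling. Clark shoot tissue gave 9 libraries from standard, Lf1 and glabrous (P1) plants: 3 vegetative buds at 5 to 7 weeks, 2 shoot tips at 1 month and 4 adult tips of 1 cm. The labels do not say that libraries of a group came from separate plants, so the spread behind each p-value is that between these libraries and may be technical.

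Libraries held 9.50 to 58.5 M reads (M is 1e+06), and levels are given as RPM, hits on both strands divided by the M reads of the library. At these depths 3 hits correspond to 0.0513 to 0.316 RPM. Gene hits ranged from 5.74 to 85.3 M per library, apart from the stage 2 seedling cotyledon with 0.965 M, which had no hit on any of the 4 genes. The 5 to 6 mg seed coats were the shallowest seed coats in gene hits, at 6.49 to 9.21 M, against 22.6 and 27.3 M at 10 to 25 mg. Reads of every length enter one count, and a hit is neither a small interfering RNA in itself nor a measure of the messenger RNA. In these bulk tissues, fewer cells of a type and less RNA per cell cannot be told apart.

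All 4 genes were represented mainly by hits from immature seed coats. These took 97.3% of 16175 hits on Glyma.05G061900, 97.4% of 14445 on Glyma.17G143600, 82.5% of 56830 on MYB93 and 77.0% of 10960 on MYB15. The 3 Williams coats by which the genes were chosen are among them, so these shares in part restate the choice. Of the immature coat hits, those 3 coats held 7774 of 15736, 7629 of 14071, 46730 of 46861 and 8428 of 8437 in the same order. Hits occurred in 22, 19, 12 and 18 of the 36 libraries in that order. Unique hits equalled total hits for each of the 4 genes, and no other gene had counts within 5% of any of them in the seed coats. The rule for a unique hit is not given in the sources used here, and the MYB5 homologs were near each other in sense hits, so reads common to the pair may be counted for both.

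**Figure D1:**
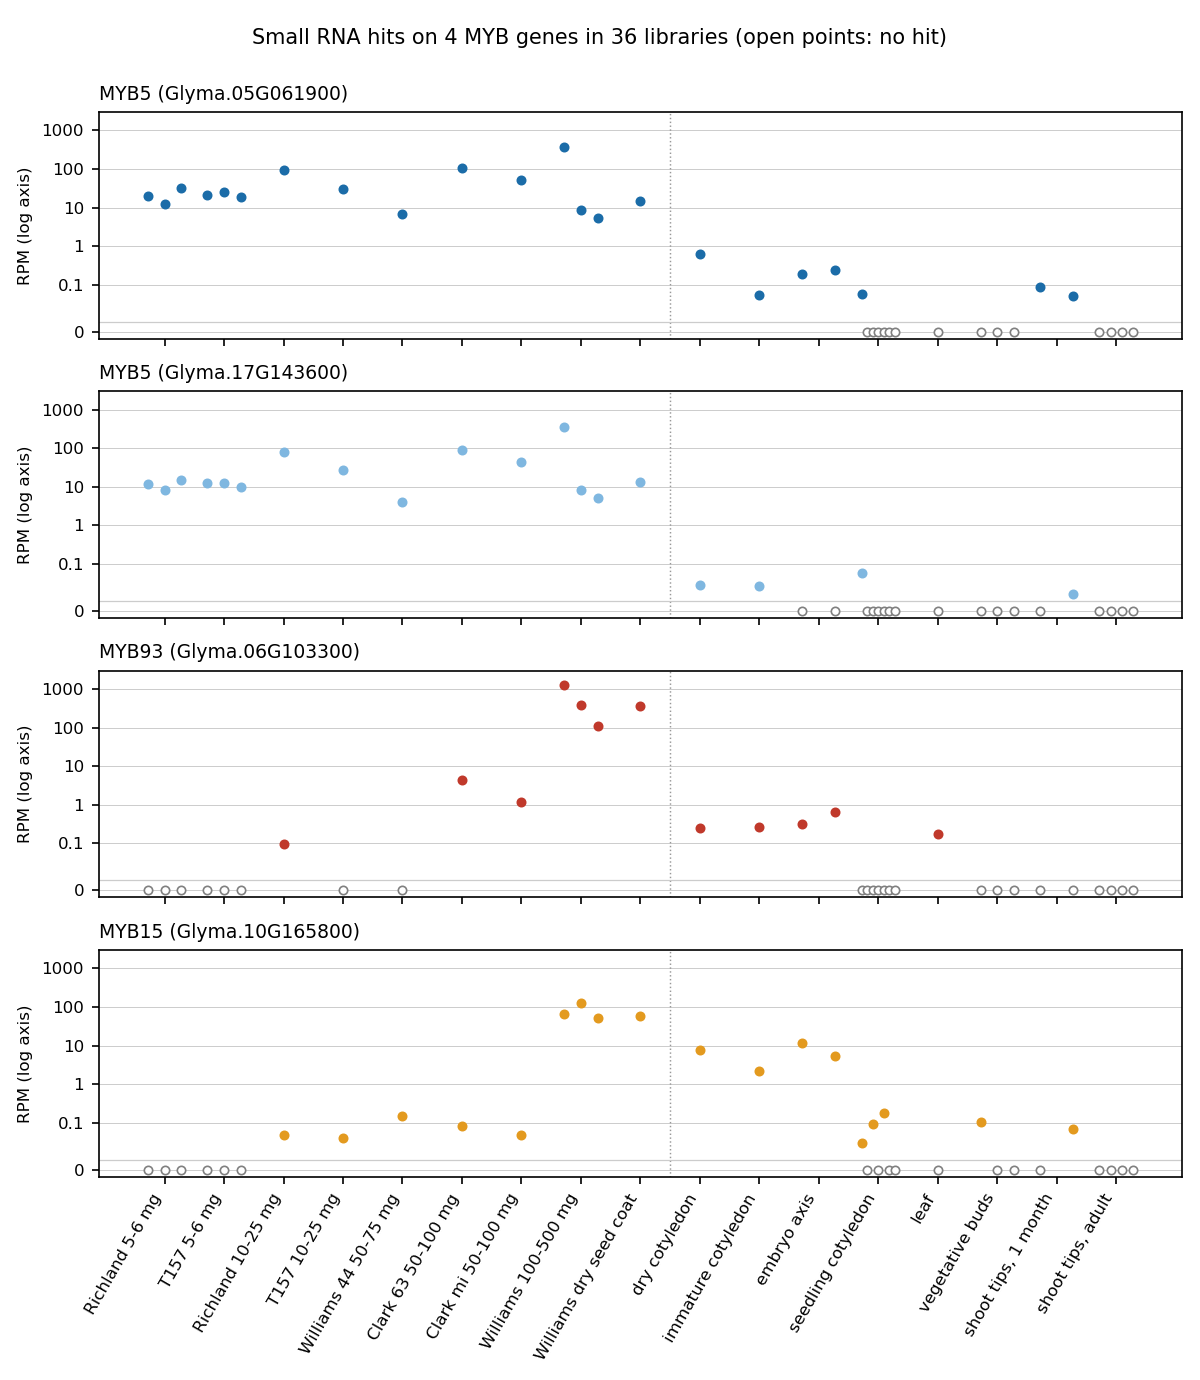
Level (RPM, log axis) of the 4 genes in each of 36 libraries, 1 point per library, with points within a group ordered by seed weight or replicate; open points had no hit, and the dotted line separates seed coats from other tissue. The MYB5 homologs reached 4.13 RPM or more in all 15 seed coats, whereas MYB93 and MYB15 reached 50 RPM in the Williams seed coats alone.

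The MYB5 homologs were found in every seed coat library of every line. Glyma.05G061900 had 364.8, 8.75 and 5.53 RPM in Williams seed coats of 100 to 200, 200 to 300 and 400 to 500 mg. It had 105.3 RPM in Clark 63, 51.7 in Clark mi and 6.69 in Williams 44. Richland coats of 5 to 6 mg had 19.6, 12.2 and 32.0 RPM and the 10 to 25 mg coat had 91.9. The corresponding T157 values were 21.4, 24.9 and 18.6 RPM at 5 to 6 mg and 29.7 RPM at 10 to 25 mg. The lightest Williams coat, Clark 63 and the 10 to 25 mg Richland coat were the 3 highest libraries, and the 2 heavier Williams coats and Williams 44 the lowest of the immature coats.

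Glyma.17G143600 kept nearly the same order at slightly lower RPM, which is not adjusted for transcript length. Per kilobase of the annotated transcript it was the higher of the pair in the 100 to 200 mg Williams coat (436.3 against 410.4 RPM) and the lower in Clark 63 (111.9 against 118.4 RPM). It had 359.1, 8.20 and 5.27 RPM in the Williams coats by rising weight, 92.1 RPM in Clark 63, 45.2 in Clark mi and 4.13 in Williams 44. Richland coats had 12.2, 8.16 and 15.0 RPM at 5 to 6 mg and 81.3 at 10 to 25 mg. T157 coats had 12.5, 12.7 and 10.1 RPM at 5 to 6 mg and 26.7 at 10 to 25 mg. The Pearson correlation between the homologs, on log2(RPM + 1) over 36 libraries that share both genes' zeros outside the seed coat, was 0.994.

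Within Williams, the 100 to 200 mg coat had 66.0 times the Glyma.05G061900 RPM of the 400 to 500 mg coat (95% exact interval 51.6 to 85.8), and for Glyma.17G143600 the ratio was 68.2 (53.0 to 89.2). These intervals, like those on shares below, cover counting error only, and each weight is 1 library. The group mean of 126.4 ± 206.5 RPM (SD, n = 3) for Glyma.05G061900 therefore describes no library well. Clark 63 had 2.04 times (1.89 to 2.19) the Clark mi level of the same gene and 15.7 times (13.5 to 18.4) that of Williams 44.

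MYB93 had the highest value of the 4 genes and a narrower distribution over lines. Its levels were 1304 RPM in the 100 to 200 mg Williams coat, 379.3 RPM at 200 to 300 mg and 113.1 RPM at 400 to 500 mg. The 100 to 200 mg level was 11.5 times (10.9 to 12.2) the 400 to 500 mg level. Per kilobase of the annotated transcript, the 100 to 200 mg coat had 915.4 RPM for MYB93, against 410.4 and 436.3 for the MYB5 homologs and 47.7 for MYB15.

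Outside standard Williams, MYB93 hits were few or absent. Clark 63 had 4.40 RPM from 105 hits and Clark mi 1.18 RPM from 24 hits. Richland at 10 to 25 mg had 2 hits, and no hit was found in Williams 44, in T157 at 10 to 25 mg or in any of the 6 coats of 5 to 6 mg. A count of 0 allows up to 0.113 RPM in Williams 44 and up to 0.252 RPM in the 5 to 6 mg coats. Williams 44 is a mutation line of Williams, but its single library is of 50 to 75 mg and the Williams coats start at 100 mg, so line and seed weight cannot be told apart.

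MYB15 followed a different order over Williams seed weight. It had 64.7 RPM at 100 to 200 mg, 127.1 at 200 to 300 mg and 53.0 at 400 to 500 mg, so that its highest library was the middle weight, not the lightest. The lightest coat had 0.509 times (0.479 to 0.540) the 200 to 300 mg level. In the 11 immature seed coats outside standard Williams it had 9 hits in all: 4 in Williams 44, 2 in Clark 63 and 1 each in Clark mi, Richland at 10 to 25 mg and T157 at 10 to 25 mg. All 6 coats of 5 to 6 mg had none.

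MYB15 differed from the other 3 genes in the embryo. Embryo axes had 11.9 RPM at 200 to 300 mg and 5.35 RPM at 300 to 400 mg, the dry cotyledon 7.74 RPM and the immature cotyledon 2.24 RPM. Seedling cotyledons of all 7 stages held 9 hits together, and the 2 embryo axes held 623. The seedling cotyledons were the low group by which the genes were chosen, so no ratio to them is given. At the same seed weight of 200 to 300 mg the seed coat had 56.7 times (45.7 to 71.2) the MYB15 level of the cotyledon. For MYB93 the same ratio was 1421 (772.4 to 2963), and for Glyma.05G061900 it was 163.8 (45.1 to 1357) against 2 cotyledon hits.

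MYB93 was low but present in the same Williams seed parts. It had 0.632 and 0.324 RPM in the embryo axes of 300 to 400 and 200 to 300 mg, 0.254 RPM in the dry cotyledon, 0.267 RPM in the immature cotyledon and 0.173 RPM from 4 hits in the leaf. It had no hit in any seedling cotyledon or shoot library, and the seedling cotyledons were the low group by which the genes were chosen. In the libraries outside the seed coat, the hits of MYB93 were 50 and all sense.

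The dry mature Williams seed coat, a single library in no test, held all 4 genes. Its levels were 371.4 RPM for MYB93, 57.2 RPM for MYB15, 14.8 RPM for Glyma.05G061900 and 13.8 RPM for Glyma.17G143600. Each lay inside the range of the 3 immature Williams coats. Against the dry cotyledon the dry coat was 1461 times (769.2 to 3196) higher in MYB93, 7.39 times (6.50 to 8.44) in MYB15 and 23.9 times (15.5 to 38.5) in Glyma.05G061900.

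The tissue difference was also measured outside standard Williams, in libraries whose values were in view when the comparison was set. The 11 immature seed coats of Williams 44, Clark 63, Clark mi, Richland and T157 were compared with the 9 Clark bud and tip libraries, neither of which entered the contrast that chose the genes. Glyma.05G061900 ranged from 6.69 to 105.3 RPM in the seed coats and had 4 hits in all the shoot libraries together, 1 and 3 in the 1-month tips. Glyma.17G143600 ranged from 4.13 to 92.1 RPM and had 1 shoot hit. Pooled over libraries, the ratios were 1556 (608 to 5714) and 5037 (904 to 198990).

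In edgeR's quasi-likelihood test with Benjamini-Hochberg adjustment over 10289 genes, Glyma.05G061900 was higher in seed coats by 9.94 ± 0.72 on the log2 scale (SE, adjusted p = 1.491e-09). Glyma.17G143600 was higher by 10.74 ± 0.78 in the same edgeR test (adjusted p = 1.491e-09). Of the genes tested, 14.8% were called higher in seed coats, and both MYB5 homologs were among the 2.21% whose 11 seed coats all lay above all 9 shoot libraries. The pair passed the filter on low counts through its seed coat hits; with no filter, over 40975 genes, the differences were 9.94 ± 0.83 and 10.83 ± 0.92 (edgeR, adjusted p = 2.239e-09 and 3.475e-09). Line and tissue are confounded here. Clark gave both tissues, but its coats and shoots came from differently labelled Clark lines, and each Clark coat line is 1 library. With the Clark 63 and Clark mi coats alone, where 7.42% of 16082 genes were higher, Glyma.05G061900 was higher by 10.20 ± 0.57 and Glyma.17G143600 by 11.32 ± 0.49 (edgeR, adjusted p = 4.67e-07 and 4.046e-08).

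MYB93 and MYB15 did not pass the filter on low counts in the comparison of 11 coats. MYB93 had 129 hits in the Clark coats and 0 in the shoot libraries. As its shoot count is 0, the Clark coats were at least 144.9-fold above the shoot libraries, with 3 hits over that group as the floor. With the Clark coats alone MYB93 passed the filter, through its coat hits, and was higher by 7.74 ± 1.06 (edgeR, adjusted p = 0.01388). With all 11 coats and no filter, MYB93 was higher by 5.70 ± 1.77 (edgeR, adjusted p = 0.02215). Its hits there were 105 in Clark 63, 24 in Clark mi, 2 in Richland at 10 to 25 mg and 0 in the other 8 coats. The difference thus rests mainly on the Clark coats and is not shared by all 11. In this fit without the filter, 5225 of 40975 genes were higher in seed coats and 4629 were lower. MYB15 differed by 0.02 ± 1.23 in that fit (edgeR, adjusted p = 0.9969). MYB15 had 9 hits in the 11 seed coats and 5 in the shoot libraries, a pooled ratio of 1.41 (0.424 to 5.35), so no difference was detectable at this depth.

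**Figure D2:**
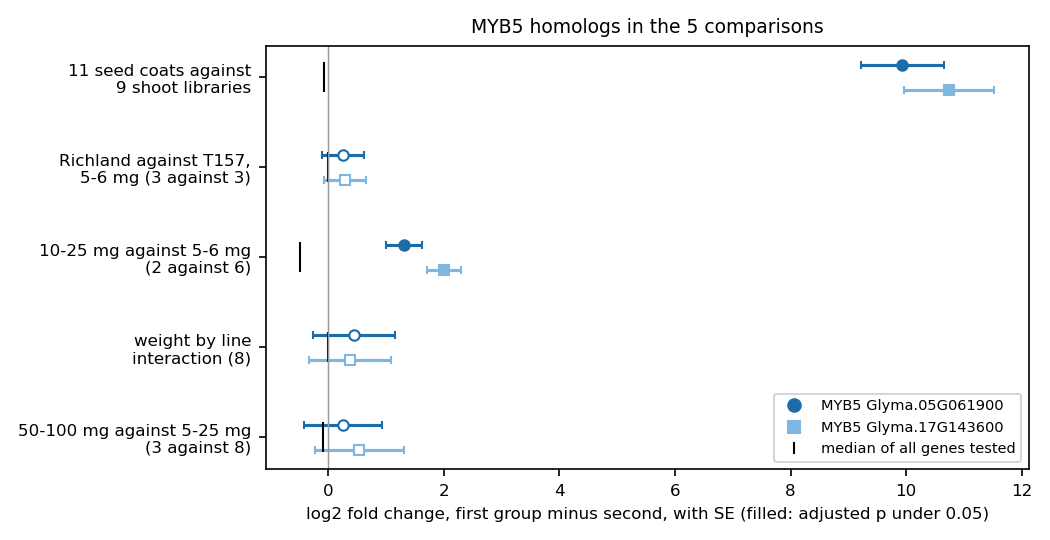
Log2 fold changes of the MYB5 homologs with SE (horizontal axis) in 5 edgeR comparisons (vertical axis, with libraries in each group); filled points have an adjusted p under 0.05 and vertical ticks are the median of all genes tested. The homologs were higher in seed coats than in shoot tissue and at 10 to 25 than at 5 to 6 mg, and the other 3 comparisons did not pass.

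Between Richland and T157 at 5 to 6 mg, which carry I and i, neither MYB5 homolog passed the test. Glyma.05G061900 had 21.3 ± 9.99 RPM in Richland and 21.6 ± 3.15 in T157 (SD, n = 3 each), and the groups overlapped. Its log2 difference, Richland minus T157, was 0.25 ± 0.36 (SE), and that of Glyma.17G143600 was 0.28 ± 0.36 (edgeR, adjusted p = 0.9871 for both), where 1.12% of 10761 genes were called. In the same edgeR test CHS7 (Glyma.01G228700) was higher in Richland by 4.69 ± 0.42 (adjusted p = 2.463e-14). MYB93 and MYB15 had no hit in any of these 6 libraries.

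Seed weight was compared within Richland and T157, with line as a term. Glyma.17G143600 was higher at 10 to 25 mg (81.3 and 26.7 RPM) than in the 6 coats of 5 to 6 mg (8.16 to 15.0 RPM), by 2.00 ± 0.30 on the log2 scale (edgeR, adjusted p = 3.884e-07). Glyma.05G061900 was higher by 1.32 ± 0.31 (edgeR, adjusted p = 0.0003241), with 91.9 and 29.7 RPM against 12.2 to 32.0 RPM. On RPM the T157 coat of 10 to 25 mg lies below the highest Richland coat of 5 to 6 mg for this gene, so its groups overlap on that scale.

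Of 13868 genes, 34.9% were called higher at 10 to 25 mg, so a call in this comparison is common. The median gene was at -0.48, and against it the MYB5 homologs stood 1.80 and 2.48 higher. Without scaling factors the median gene was at -1.37, Glyma.05G061900 was no longer called (0.43 ± 0.37, edgeR adjusted p = 0.2958) and its distance from the median gene was 1.80. The 10 to 25 mg libraries are deeper, and the part of depth in this difference was not tested.

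The change with weight was not shown to differ between the lines. At 10 to 25 mg the Richland coat had 3.10 times (2.84 to 3.38) the Glyma.05G061900 level of the T157 coat, each a single library. The interaction of line and weight was 0.45 ± 0.71 for Glyma.05G061900 and 0.38 ± 0.70 for Glyma.17G143600 on the log2 scale (edgeR, adjusted p = 1 for both). Of 15726 genes, 0% were called by edgeR and 0 by DESeq2, and 446 had an unadjusted edgeR p under 0.05.

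Coats of 50 to 100 mg (Williams 44, Clark 63 and Clark mi) were also set against the 8 coats of 5 to 25 mg. Glyma.05G061900 differed by 0.25 ± 0.67 on the log2 scale (edgeR, adjusted p = 0.7611) and Glyma.17G143600 by 0.54 ± 0.77 (edgeR, adjusted p = 0.5635). The 3 heavier coats ranged from 6.69 to 105.3 RPM for Glyma.05G061900, a wider spread than the 12.2 to 91.9 RPM of the lighter ones. Here 35.8% of 15017 genes were called, but without Williams 44 the count fell from 5371 to 32, so the background itself rests on that library. With no filter, MYB93 was higher at 50 to 100 mg by 5.84 ± 1.13 (edgeR, adjusted p = 0.008527), where 8692 of 39273 genes were called. MYB15 differed by 1.79 ± 1.00 in that fit (edgeR, adjusted p = 0.1857). The MYB93 hits at 50 to 100 mg were 105 in Clark 63, 24 in Clark mi and 0 in Williams 44. Its difference thus comes from the Clark coats and is not shared by the whole weight class. Line and weight are confounded in this comparison.

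The choice of genes used hits summed over strands, and the split between strands was a separate measure. MYB15 and MYB93 hits in Williams seed coats were sense. MYB15 had no antisense hit in the 3 immature coats or the dry coat, where the largest upper bound on the antisense share was 0.622% (95% Wilson interval, 614 hits at 400 to 500 mg). MYB93 had 9 antisense hits of 25945 at 100 to 200 mg, 4 of 19475 at 200 to 300 mg, 0 of 1310 at 400 to 500 mg and 10 of 9919 in the dry coat.

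In Clark the strand split of MYB93 was different. Of its 105 hits in Clark 63, 36.2% were antisense (27.6 to 45.7), and of 24 hits in Clark mi 41.7% were antisense (24.5 to 61.2). The Williams share at 100 to 200 mg was 0.0347% (0.0183 to 0.0659). In numbers, Clark 63 had 67 sense and 38 antisense hits, Clark mi 14 and 10, and the 100 to 200 mg Williams coat 25936 and 9.

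The MYB5 homologs had hits on both strands in every seed coat library. In Williams the antisense share of Glyma.05G061900 was 9.85% (9.18 to 10.6) at 100 to 200 mg, 14.5% at 200 to 300 mg, 10.9% at 400 to 500 mg and 18.2% in the dry coat. It was 42.4% (40.5 to 44.4) in Clark 63, 48.1% in Clark mi, 53.4% in Williams 44, and 44.8% and 44.4% in Richland and T157 at 10 to 25 mg. All 11 coats outside standard Williams had a higher antisense share than all 4 Williams coats, for both homologs. A low share was not always a low antisense level. The 100 to 200 mg Williams coat had 35.9 antisense and 328.9 sense RPM of Glyma.05G061900, against 44.7 and 60.6 in Clark 63. Antisense levels of this gene in the other Williams coats were 1.27 RPM at 200 to 300 mg, 0.604 at 400 to 500 mg and 2.70 in the dry coat. The Williams coats are also the heaviest immature coats, at 100 mg and over, so that line and weight cannot be told apart here either.

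**Figure D3:**
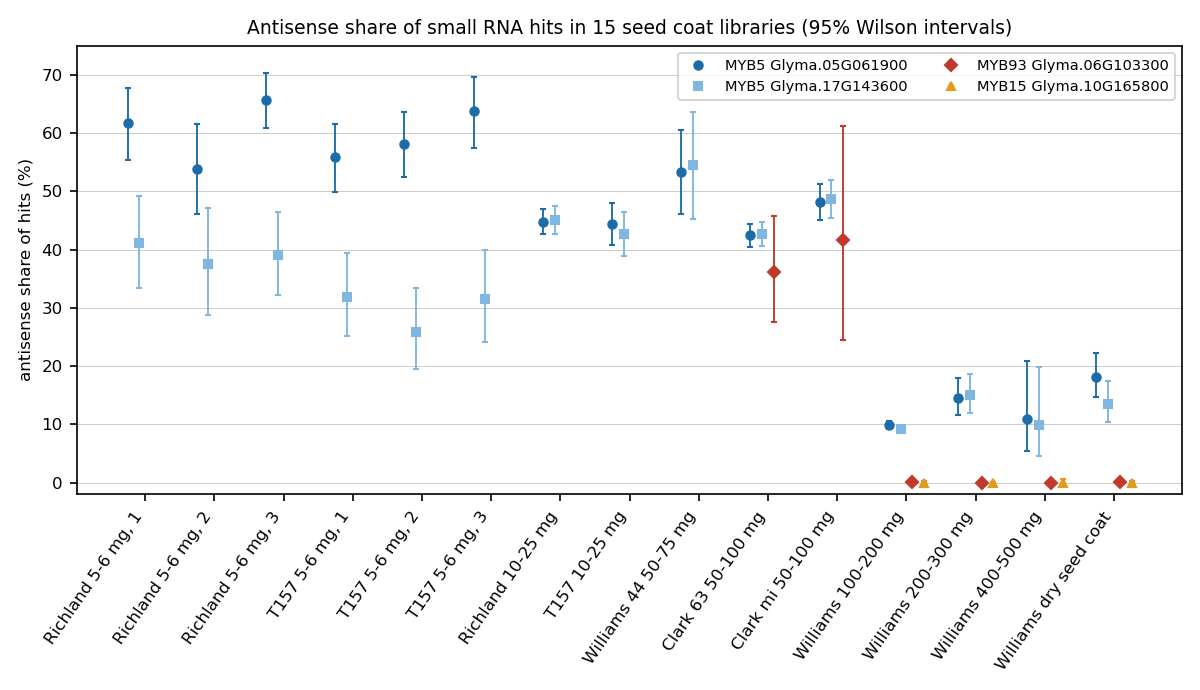
Antisense share of hits (percent, vertical axis) in the 15 seed coat libraries (horizontal axis) for each gene with at least 20 hits; bars are 95% Wilson intervals, for counting error only. Shares of the MYB5 homologs were 25.8% or more outside standard Williams and 18.2% or less in it, and MYB93 and MYB15 were near 0 in Williams.

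The pair parted on the antisense strand of the youngest coats. At 5 to 6 mg the antisense hits of Glyma.05G061900 were 12.1, 6.59 and 21.0 RPM in Richland and 11.9, 14.4 and 11.8 RPM in T157. Those of Glyma.17G143600 were 5.02, 3.06 and 5.87 RPM in Richland and 3.98, 3.28 and 3.17 RPM in T157. Glyma.05G061900 was thus the higher in all 6 libraries and the groups did not overlap.

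As a ratio of Glyma.05G061900 to Glyma.17G143600 within each library, antisense hits stood at 2.15 to 4.41 in the 6 coats of 5 to 6 mg (median 3.29). The same ratio was 1.12 and 1.16 at 10 to 25 mg, 1.14 in Clark 63, 1.13 in Clark mi, 1.58 in Williams 44 1.44 in the dry Williams coat and 1.03 and 1.09 in the 2 immature Williams coats with at least 20 antisense hits. Sense hits gave 0.978 to 1.20 at 5 to 6 mg, within the 1.01 to 1.66 seen in the other 9 coats or just below it. Antisense hits were more numerous on Glyma.05G061900 in all 15 seed coats, but only by 7 to 6 and 65 to 63 in the Williams coats of 400 to 500 and 200 to 300 mg. Its annotated transcript has 889 bases, against 823 for Glyma.17G143600, and these ratios are not adjusted for length.

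Fitted by strand, the sense hits of the homologs were higher at 10 to 25 mg by 2.04 ± 0.32 and 2.04 ± 0.31 on the log2 scale (edgeR, adjusted p = 4.315e-07 and 3.569e-07). The antisense hits of Glyma.17G143600 were higher by 2.43 ± 0.31 (edgeR, adjusted p = 5.348e-08) and those of Glyma.05G061900 by 0.97 ± 0.32 (edgeR, adjusted p = 0.008288). The difference between the homologs' antisense changes was not tested in a model. Overlapping transcripts on the opposite strand were not examined, as no gene positions of this annotation were used here.

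**Figure D4:**
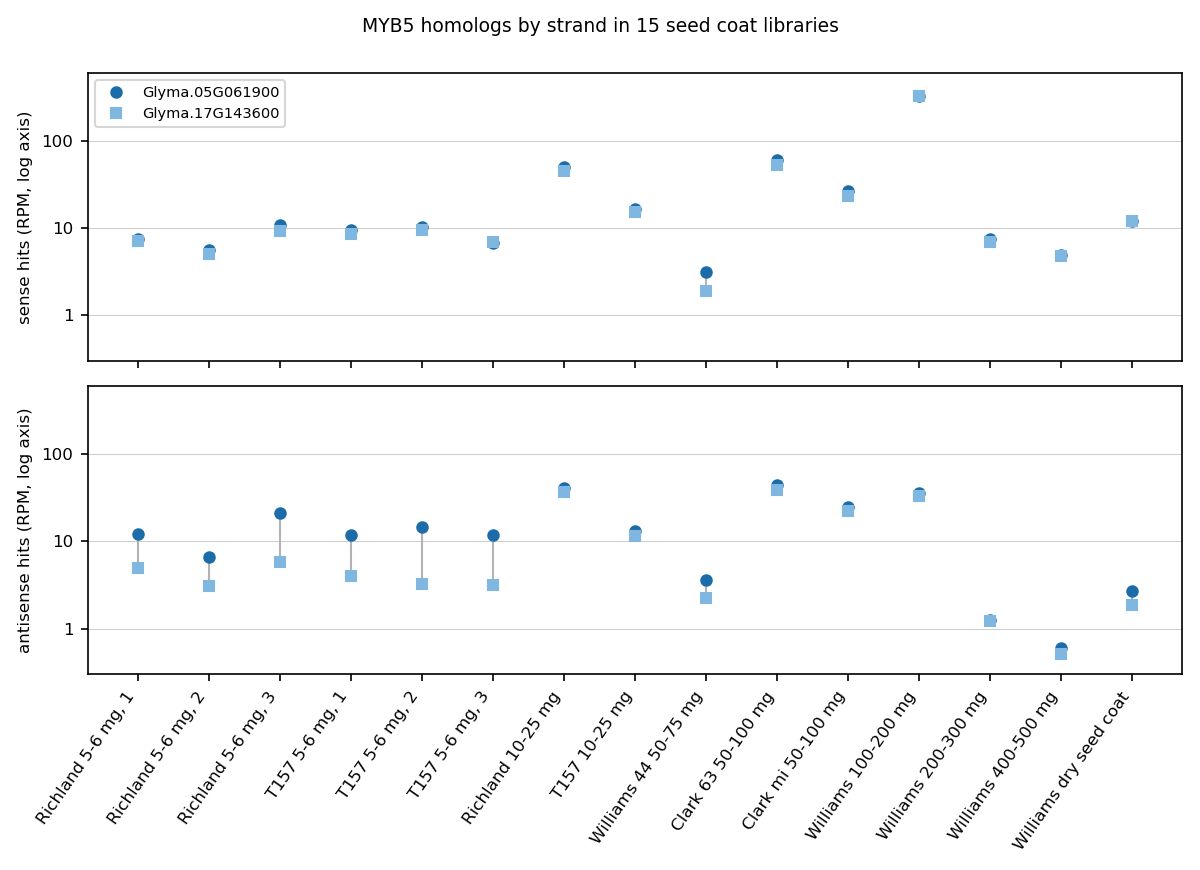
Sense (top) and antisense (bottom) hits (RPM, log axis) of both MYB5 homologs in the 15 seed coat libraries, with a grey line joining the pair in each library. The pair nearly coincides on the sense strand, and at 5 to 6 mg Glyma.05G061900 lies 2.15 to 4.41 times above Glyma.17G143600 on the antisense strand.

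The same asymmetry was present in the few hits outside the seed coat. Over the 21 libraries of other tissue, 41 of 43 hits on Glyma.05G061900 were antisense. Of these, 21 of 22 hits in the dry cotyledon and all 5 and 8 hits in the embryo axes were antisense. Glyma.17G143600 had 5 hits in the same libraries, 2 of them antisense and both in the stage 1 seedling cotyledon, and none in the embryo axes.

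Other genes carry the same descriptions. Of 9 genes described as MYB5, 7 are outside the pair, all had hits, and the highest seed coat level among them was 21.0 RPM, for Glyma.01G207600 in a Williams coat. That gene had no hit in any tissue other than seed coat, and 4.20% of its 929 hits were antisense. Glyma.20G184100 had 74.5% antisense hits and reached 7.54 RPM in a seed coat and 5.25 RPM elsewhere. Glyma.10G206400 and Glyma.20G184200 had 697 and 688 hits and the same highest level of 4.93 RPM, so their values are uncertain as reads may be common to both.

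The only other gene described as MYB93, Glyma.04G101900, had 21 hits, all in the dry seed coat (0.786 RPM). Of the 11 other genes described as MYB15, 7 had a hit. The highest level among them was that of Glyma.20G209700, with 19.7 RPM in the dry seed coat and at most 1.54 RPM in an immature one. The immature coats had at most 2.97 RPM of any of these 11, from Glyma.06G300300, whose 573 hits were all antisense.

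**Figure D5:**
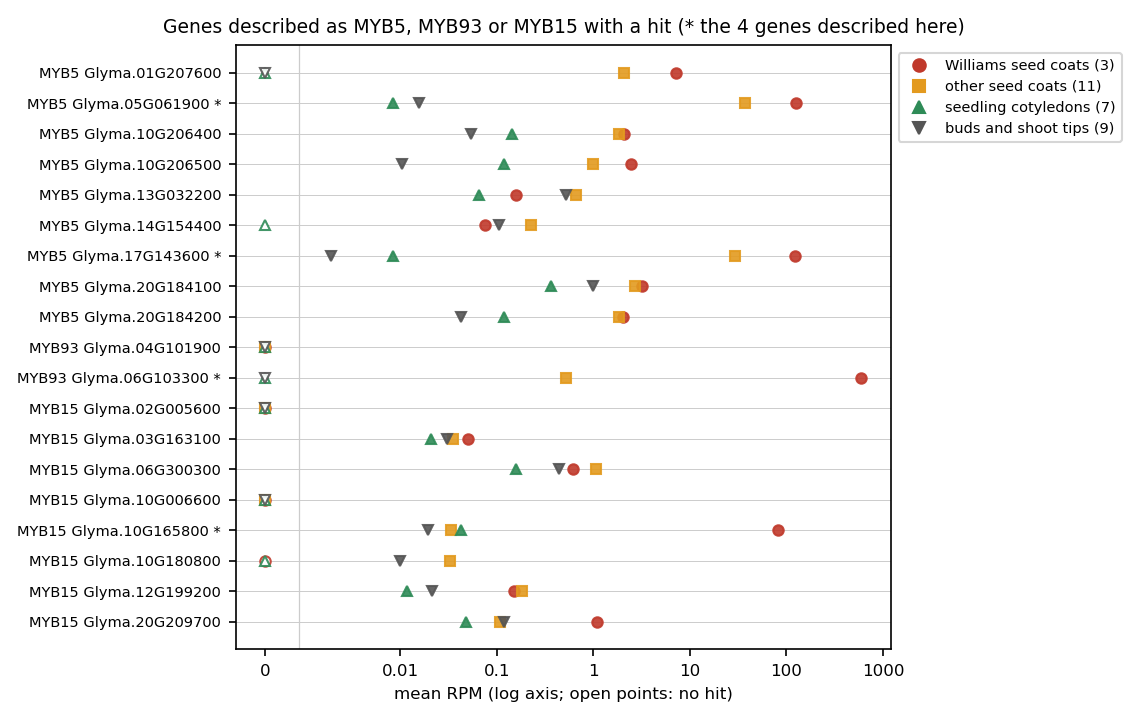
Mean level (RPM, log axis, horizontal) of every gene described as MYB5, MYB93 or MYB15 with a hit (vertical axis; an asterisk marks the 4 genes described here) in 4 groups of libraries, with n in the legend; open points had no hit. The MYB5 pair had 126.4 and 124.2 RPM in Williams coats and 37.6 and 29.1 RPM in other coats, and MYB93 and MYB15 had 598.6 and 81.6 RPM in Williams and 0.516 and 0.0339 RPM in other coats.

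MYB genes in general were counted from the deposited descriptions. In the comparison of 11 seed coats with shoot tissue, 19 of 82 tested MYB genes were higher in seed coats and 5 lower. Their median log2 difference was 0.52 against -0.07 over all genes. Of all 10289 genes, 14.8% were higher and 902 were lower. The MYB5 description had 3 tested genes, all higher, and the MYB93 and MYB15 descriptions had none tested. At 10 to 25 against 5 to 6 mg, 37 of 111 MYB genes were higher and 52 lower, with a median of -0.69 against -0.48 over all genes. Of all 13868 genes, 34.9% were higher and 6007 were lower. That split of MYB genes depends on the scaling, with 45 higher and 41 lower under DESeq2 size factors, 40 and 39 with library reads and 25 and 59 without factors. Among the MYB genes named by smallest p, Glyma.17G133800 (MYB42, known from lignin regulation in Arabidopsis) was higher by 5.71 ± 0.32 and Glyma.13G063200 (MYB30, a defence regulator in Arabidopsis) by 8.33 ± 0.53 (edgeR, adjusted p = 1.29e-16 and 2.268e-15). Between Richland and T157, 1 of 81 was called against 1.12% of all genes, Glyma.01G038600, higher in Richland by 2.06 ± 0.49 (edgeR, adjusted p = 0.009225), and it was not called with library reads as the scale.

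Genes of the pathways that these MYB families are known to regulate were counted beside them. Flavonoid enzyme genes, CHS included, were higher in seed coats than in shoot tissue for 22 of 28 and lower for 1, with a median of 3.89, where 14.8% of all genes were higher. Examples were the flavanone 3-hydroxylase genes Glyma.02G048600 and Glyma.02G048400, higher by 4.24 ± 0.62 and 4.19 ± 0.63 (edgeR, adjusted p = 2.382e-05 and 2.878e-05). They had 1076 and 1073 hits in the seed coats, so reads may be common to both. In Richland, 19 of 28 flavonoid genes were higher than in T157 and none lower, where 70 of all 10761 genes were higher. CHS7 and CHS8 (Glyma.11G011500) had 5265 and 5154 hits in these Richland coats. Genes of this list may thus share reads, and its counts are not of independent genes. Suberin and cutin genes were higher in seed coats for 3 of 20 and lower for 1, with a median of 0.16, a share near the 14.8% over all genes. At 10 to 25 mg, GPAT5 (Glyma.02G249300), an acyltransferase of suberin synthesis in Arabidopsis, was higher by 5.00 ± 0.30 (edgeR, adjusted p = 6.198e-16). Of 25 suberin and cutin genes tested there, 6 were higher and 7 lower, where 34.9% of all 13868 genes were higher and 6007 were lower. Under DESeq2 size factors or library reads that list had 7 higher and 4 lower, and without factors 5 and 12.

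Genes of RNA silencing were higher in seed coats than in shoot tissue for 7 of 16 and lower for 1, with a median of 1.02, beside 14.8% higher over all genes. The lists for other tissues gave 7 of 47 seed storage genes higher and 4 lower (median 0.03), a share near that over all genes. Of 37 photosynthesis genes, 1 was higher and 24 were lower (median -1.66), where 902 of all 10289 genes were lower. The chlorophyll a/b binding genes Glyma.08G082900 and Glyma.05G128000 were lower in seed coats, with log2 differences of -4.67 ± 0.51 and -4.61 ± 0.50 (edgeR, adjusted p = 4.821e-07 and 4.941e-07). A list of seed coat flavonoid regulators such as TT8 and TTG1 matched no description and gave no value. With library reads as the scale the split over all genes moved from 1526 higher and 902 lower to 1947 and 281.

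The genes whose levels ran most like each of the 4 were found by Pearson correlation of log2(RPM + 1) over the 36 libraries, among 12901 genes with at least 1 RPM on average in immature seed coats. For both MYB5 homologs the closest was AAE12 (Glyma.18G044900, acyl activating enzyme 12), at r of 0.978 with Glyma.05G061900 and 0.961 with Glyma.17G143600. AAE12 averaged 151.0 RPM in immature seed coats and at most 0.345 RPM in another tissue, with 58.3% of its hits antisense. SKIP4 (Glyma.07G071600, SKP1 interacting partner 4) and the undescribed Glyma.02G096700 were also among the 5 closest to each homolog, at 0.952 to 0.971. The remaining genes were Glyma.07G239600 and Glyma.07G048500 (LHY) for Glyma.05G061900, and Glyma.11G034900 (MYB32) and Glyma.08G148200 (NF-YC9) for Glyma.17G143600, at 0.933 to 0.945.

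For MYB93 the 5 closest genes had r of 0.919 to 0.951 and averaged 4.11 to 28.9 RPM in Williams coats and at most 0.921 RPM in the others. They were Glyma.10G034100 (INDL), Glyma.13G357632 (a late embryogenesis abundant protein), Glyma.13G136300 (homeodomain-like), Glyma.09G054400 and Glyma.02G072300. For MYB15 they had r of 0.967 to 0.986 and reached 2.59 to 13.1 RPM outside the seed coat. These were Glyma.10G215100 (PS1), Glyma.06G308000, Glyma.10G217250, Glyma.07G093000 (B120, an S-locus lectin kinase) and Glyma.13G092600. MYB93 and MYB15 correlated at 0.890 with each other, and at 0.240 to 0.499 with the MYB5 homologs. These values describe 36 libraries that share lines, tissues and many zeros.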

How the data were processed

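Small RNA reads of total RNA were counted by the authors. The deposited strand table holds raw counts of total and unique read hits on the sense and antisense strand of 86256 transcript models, per the file headers. A second deposited table holds, per the file headers, counts of CHS7 and CHS8, their RPM and the reads of each library in M (1e+06). CHS counts were equal in both tables in all 36 libraries. Bowtie 1 aligned the reads, per the submitters' processing notes. The sources used here do not state mismatches or read sizes. They name 2 small RNA kits and 2 sequencer models but not which made which library, and no such batch could be fitted.

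The lowest splice form stood for each gene (52872 genes, 44168 with a hit). RPM here is total hits on both strands over the deposited M reads. Comparisons used edgeR 4.0.16 in R 4.3.3 with TMM factors and the quasi-likelihood test. The SE beside each edgeR difference was derived as the size of the log2 difference over the square root of the F statistic of that test. Low genes were removed by filterByExpr (min.count 10, min.total.count 15). A gene was called at p under 0.05 after Benjamini-Hochberg adjustment over every gene tested. The procedure was tested on simulated data. Alternatives were DESeq2 1.42.0, other scaling, no filter, unique hits, each strand alone, other sets of lines and leaving out each library. Shares have 95% Wilson intervals and pooled ratios 95% exact intervals, and the floor is 3 counts; all cover counting error only, since PCR reads are not independent molecules. Python 3.11.15, scipy 1.17.1, pandas 2.3.3 and matplotlib 3.10.9 were used.

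The 4 genes, the comparisons and the 10 lists matched on deposited descriptions were chosen with earlier results of these data known. Named beside the 4 genes were the 5 genes most like each and, from the lists, genes among the 2 with the smallest p that were called with no overlap between groups; single genes with the same description as one of the 4 were chosen after their values were seen. The reference table here holds no identifiers of this annotation, so positions and sequences are not given.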

Additional observations from a re-analysis of the deposited data

Results flagged for a closer look

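Dixon's rule for groups of 4 to 10 libraries marked the stage 1 seedling cotyledon, the library of seeds imbibed for 48 hours, for both MYB5 homologs. Glyma.05G061900 had 0.05821 RPM there and Glyma.17G143600 had 0.05821 RPM, from 2 antisense hits each, below the 0.0873 RPM that 3 hits give in this library. Chance flags about 1 in 20 groups, but that rate does not hold here: the other 6 stages had no hit on either gene, and any hit would then be marked.

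The other values marked come from Williams libraries that enter none of the 5 edgeR comparisons and exceed the highest seedling cotyledon or shoot library. That level was 0.0886 RPM for Glyma.05G061900, 0.0582 for Glyma.17G143600, 0 for MYB93 and 0.1744 for MYB15. The seedling cotyledons were the low group by which the genes were chosen, so values above this level are a description.

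The dry seed coat exceeded it for all 4 genes, with 14.83 RPM for Glyma.05G061900, 13.82 for Glyma.17G143600, 371.4 for MYB93 and 57.22 for MYB15. For Glyma.05G061900 the dry cotyledon had 0.6216 RPM and the embryo axes of 300 to 400 and 200 to 300 mg had 0.243 and 0.185 RPM. For MYB93 the dry cotyledon had 0.2543 RPM, the immature cotyledon 0.267, the embryo axes 0.6319 and 0.3238 and the leaf 0.1726. For MYB15 the dry cotyledon had 7.741 RPM, the immature cotyledon 2.242 and the embryo axes 5.347 and 11.86.

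Seed parts were separated by hand, and whether seed coat RNA entered the embryo libraries was not tested. The dry seed coat had 7.39 times the dry cotyledon level of MYB15 and 1461 times that of MYB93.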

How the results depend on the processing

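Both MYB5 homologs kept their direction and call in seed coats against shoot tissue under all 30 alternatives, from 8.93 to 11.09 (log2) for Glyma.05G061900 and 10.04 to 11.60 for Glyma.17G143600. At 10 to 25 against 5 to 6 mg, 15 of 16 alternatives kept the Glyma.05G061900 call and all 16 that of Glyma.17G143600; the exception is given above. Calls over all genes moved with the filter, the strand and single libraries. Without the filter they were 9854 (seed coats against shoot), 17294 (10 to 25 mg), 7 (interaction) and 8692 (50 to 100 mg), against 2428, 10843, 0 and 5371. Sense hits alone gave 1229, 6478 and 3194 in the same order without the interaction, and 66 between Richland and T157 against 121. Antisense hits alone gave 1100, 6139, 8, 2318 and 75. Clark coats alone gave 1545. Mean levels at 5 to 6 mg rose when counted per M gene hits instead of M reads. Glyma.05G061900 went from 21.3 to 38.9 in Richland and from 21.6 to 33.6 in T157, and Glyma.17G143600 from 11.8 to 21.6 and from 11.7 to 18.3.

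Leaving out each library gave 2045 to 2726, 8542 to 10738 and 99 to 156 calls, but 32 to 7791 at 50 to 100 mg: 32 without Williams 44, 3256 without Clark 63, 2729 without Clark mi, and 2514 and 2786 without T157 replicates 1 and 2 of 5 to 6 mg. Differences that never passed changed sign. Glyma.05G061900 between Richland and T157 was -0.021 with library reads as the scale and -0.084 to 0.44 leaving out libraries. At 50 to 100 mg it was -0.34 without scaling factors and -0.37 to 0.78 leaving out libraries, and Glyma.17G143600 was -0.12 to 1.09. The Glyma.17G143600 interaction was -0.022 on antisense hits.

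With a replicate block between Richland and T157, 101 genes were called (68 higher, 33 lower) and the homologs differed by 0.22 ± 0.40 and 0.31 ± 0.40. Libraries with the same number correlated at -0.21 to -0.16 in their deviations from group means, and those with different numbers at 0.015 to 0.157. With 3 libraries per group these values are tied to each other, so they cannot decide whether the numbers pair libraries. Splits of calls moved with scaling: at 10 to 25 mg 4836 genes were higher and 6007 lower, but 3307 and 7452 without factors, 5484 and 4599 with DESeq2 size factors and 5143 and 4689 with library reads. At 50 to 100 mg 3220 and 2151 became 2319 and 4207 without factors, 2754 and 2213 with DESeq2 size factors and 5504 and 1544 with library reads. Of the 5 genes most like a gene, Spearman correlation kept 1, 2, 0 and 0 for the MYB5 pair, MYB93 and MYB15. Of the 11 immature coats outside standard Williams, 9 had 3 hits or fewer on MYB93 and 10 on MYB15. Differences among such low counts are uncertain, and the part of depth in them was not tested.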
